A study of Danio rerio with 12 samples.

Results

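Sox3, a transcription factor of the SoxB1 family, acts in the neural lineage, where SoxB1 factors hold cells in a progenitor state and prepare neural genes for expression. p63, encoded by tp63, belongs to the p53 family and drives the epidermal programme in the embryonic ectoderm. Neural and epidermal cells come from the same ectoderm, and where each factor binds chromatin is one way to follow that choice. The regions described here were bound by Sox3 in tp63−/− mutants at 36 hours post-fertilization (hpf) and in wild type (WT) embryos at 24 hpf. They had no Sox3 peak in WT embryos at 36 hpf and no p63 peak at any profiled stage. There were 3094 of them among 102840 merged Sox3 regions (3.01%), and they are called members below.

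The data came from ChIPmentation, a chromatin immunoprecipitation in which the Tn5 transposase adds the sequencing adaptors, on pools of whole zebrafish embryos. Sox3 was profiled in tp63−/− embryos at 36 hpf (n = 2 libraries) and in WT embryos at 3 stages: late gastrulation, named 80% of epiboly (n = 1), then 24 hpf (n = 1) and 36 hpf (n = 2). p63 was profiled in WT embryos of the same stages (n = 2 per stage). Second Sox3 libraries of the earlier stages were left out by the study for their quality. WT fish were of the AB and Tübingen strains. The tp63−/− embryos carried a small CRISPR/Cas9 deletion that introduces a premature stop codon, were picked by their fin phenotype, and were pooled in far smaller numbers per library than WT embryos. Whole embryos mix many tissues, so more cells with Sox3 at a region and more Sox3 per cell cannot be told apart. The genotype was taken from the labels, since peak lists hold no measure of the tp63 product.

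Members were selected on measured values. The peaks of the 4 Sox3 lists at 36 hpf were merged where they shared at least 1 bp, and a member had a peak in both tp63−/− lists, a peak in neither WT list, an overlap with a peak of the Sox3 list at 24 hpf, and no overlap with a peak of any of the 6 p63 lists. Regions with a peak in both tp63−/− lists and neither WT list (mutant-only regions) numbered 13367, or 13% of the merged regions, against 262 with the opposite pattern. Of the mutant-only regions, 6637 (49.7%) overlapped a 24 hpf peak, against 46.1% of all merged regions. Of those 6637 regions, 3094 (46.6%) were free of p63 peaks and became the members. Among regions without a p63 peak, 35.2% of the mutant-only ones had a 24 hpf peak, against 30.7% of all merged ones. These counts describe the selection and were not tested.

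Comparison sets were built from the same lists. New regions (5687) were mutant-only with neither a 24 hpf peak nor a p63 peak. p63-contacted regions (3543) were mutant-only with a 24 hpf peak and at least 1 p63 peak. Stable regions (7833) had a peak in all 4 Sox3 lists at 36 hpf and at 24 hpf and no p63 peak. Only 45 regions showed the mirror pattern of the members, with peaks in both WT lists at 36 hpf and at 24 hpf and in neither tp63−/− list.

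Depth differed between the lists that define a member. The number of tags behind each peak call, recovered from the values in the list, was 14.1 M and 12.9 M (M, megatags) in the tp63−/− libraries and 11.6 M in the 24 hpf library, against 7.97 M and 5.75 M in the WT libraries at 36 hpf. Depth here means these recovered tags. By them, the lists with a member peak were the 3 with most, and the lists without one the 2 with fewest. The uniquely mapped reads that the study reported had another order. There the 24 hpf library had the fewest of these 5, and tp63−/− replicate 2 had fewer than either WT library at 36 hpf. The tp63−/− lists held 81578 and 59786 peaks and the 24 hpf list 67886, against 51504 and 29082 in the WT lists at 36 hpf. The pileup is the number of tags stacked at a summit. The smallest call was derived as the pileup that reaches the lowest −log10 p of a list at its lowest background. It was 8 in both tp63−/− lists and 7 at 24 hpf, against 6 in both WT lists. Per M tags, that smallest call was 0.566 and 0.619 in the tp63−/− lists and 0.604 at 24 hpf, against 0.753 and 1.04 in the WT lists, so a peak of given relative height was harder to call in WT. Genotype and tag number therefore cannot be told apart for the absence of a WT peak. When the 5 Sox3 lists were scaled to the depth of the shallowest, 1626 regions met the rule, 1588 of them members, and with equal numbers of top peaks taken from each list 273 did, 136 of them members. Leaving out 1 replicate raised the number, to 6370 without WT replicate 1 and 6410 without tp63−/− replicate 2. A rise is all but built in, since a condition of the rule falls away.

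Members were middling to weak Sox3 peaks in the mutants. Peaks were ranked within each list by their −log10 q (the significance of the summit over local background), with percentile 100 for the strongest. The median member stood at percentile 50.3 (95% interval 48.8 to 51.3) in tp63−/− replicate 1 and at 34.0 (32.8 to 35.1) in replicate 2, against 85.7 and 80.7 for stable regions. p63-contacted regions lay slightly above the members, at 52.96 and 38.3, and new regions below them, at 43.9 and 29.0. In the strongest 10% of a list there were 3 members in replicate 1 and 1 in replicate 2. In the strongest 25% there were 204 (6.59%) and 48 (1.55%). The lower 50% held 1530 members (49.5%) of replicate 1 and 2298 (74.3%) of replicate 2. Since a member had to lack a WT peak, low ranks go with the rule and are a description.

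At 24 hpf the members ranked low as well, and there they parted from the p63-contacted regions. Their median percentile was 39.1 (38.1 to 40.4), against 60.8 (59.8 to 61.9) for p63-contacted regions and 68.1 (67.5 to 68.8) for stable regions. Over all merged regions with a 24 hpf peak the median was 62.8 (62.4 to 63.2), so p63-contacted regions lay near the general level. No median was taken over all regions with a 24 hpf peak and no p63 peak. Whether the low rank is particular to members among these was thus not tested. In the mutants the medians of members and p63-contacted regions lay close together. At 24 hpf the middle 50% of values ran from 21.2 to 57.3 for members and from 40.7 to 76.1 for p63-contacted regions. The 24 hpf list is a single library, so this difference has no replicate check. Of the members, 2 were in the strongest 10% of the 24 hpf list, 176 (5.69%) in the strongest 25% and 2004 (64.8%) in the lower 50%. A total of 1028 members (33.2%) ranked higher at 24 hpf than in both mutant lists, and 1153 (37.3%) ranked lower than in both. These counts set ranks from lists of unlike length side by side. The same shares were not taken in the comparison sets or over all regions, so the counts show nothing particular to members. Exactly 1 member was above percentile 75 in all 3 lists, and 125 (4.04%) were at or below percentile 25 in all 3.

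**Figure D1:**
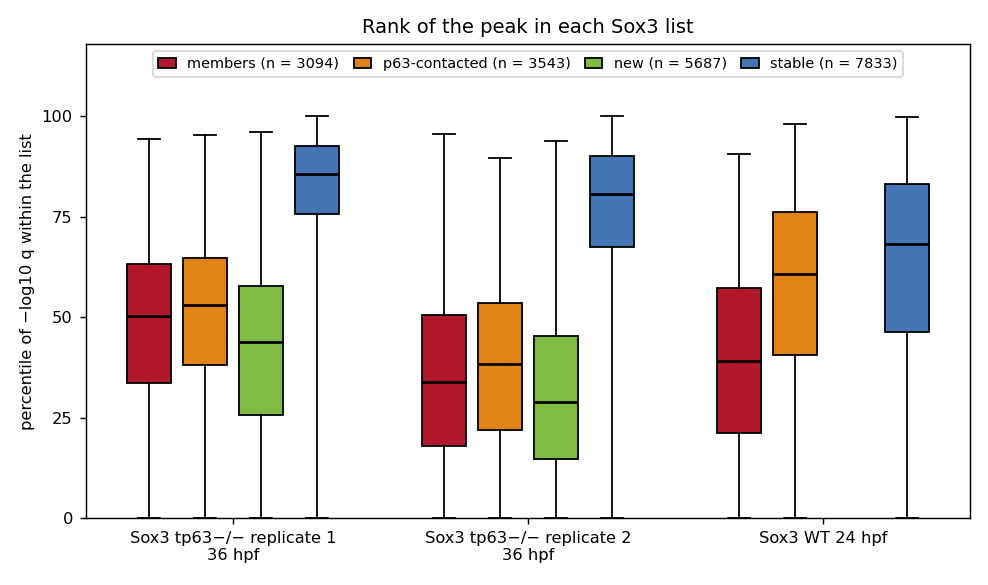
Percentile of −log10 q (vertical axis, 0 to 100) in both Sox3 tp63−/− lists at 36 hpf and in the Sox3 WT list at 24 hpf, for members, p63-contacted, new and stable regions. Boxes give the median and the middle 50% of regions and whiskers the lowest and highest; members sit close to p63-contacted regions in the mutants (medians 50.3 and 52.96 in replicate 1) and below them at 24 hpf (39.1 and 60.8), and new regions have no 24 hpf peak by definition.

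By tag pileup, members again lay under stable regions. Unlike the percentiles, which are ranks within lists of unlike length, the pileup per M tags was close in the mutant replicates. The median member summit carried 20 tags in tp63−/− replicate 1, 18 in replicate 2 and 15 at 24 hpf. Per M tags of the library this was 1.41, 1.39 and 1.29, against 3.61, 3.56 and 1.98 for stable regions. For p63-contacted regions the corresponding values were 1.49, 1.39 and 1.72, highest at 24 hpf. The member medians lay close together, while the stable median was lower at 24 hpf than in the mutants. Dividing by tags leaves other differences between libraries in place. The rule also bounded member heights, since it asked for a peak in all 3 lists and none in WT at the mutant stage. Whether members were as high at 24 hpf as in the mutants was thus not tested. The pileup per M tags was higher at 24 hpf than in both mutant lists in 894 members (28.9%) and lower than in both in 1365 (44.1%). These shares, too, were taken in members only. Median fold enrichment, the pileup over the local background of the same library, was 7.12 and 6.68 in the tp63−/− lists and 6.28 at 24 hpf, against 12.3, 11.5 and 7.77 for stable regions. In each of the 3 lists between 98.7% and 98.9% of members held a single peak.

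**Figure D2:**
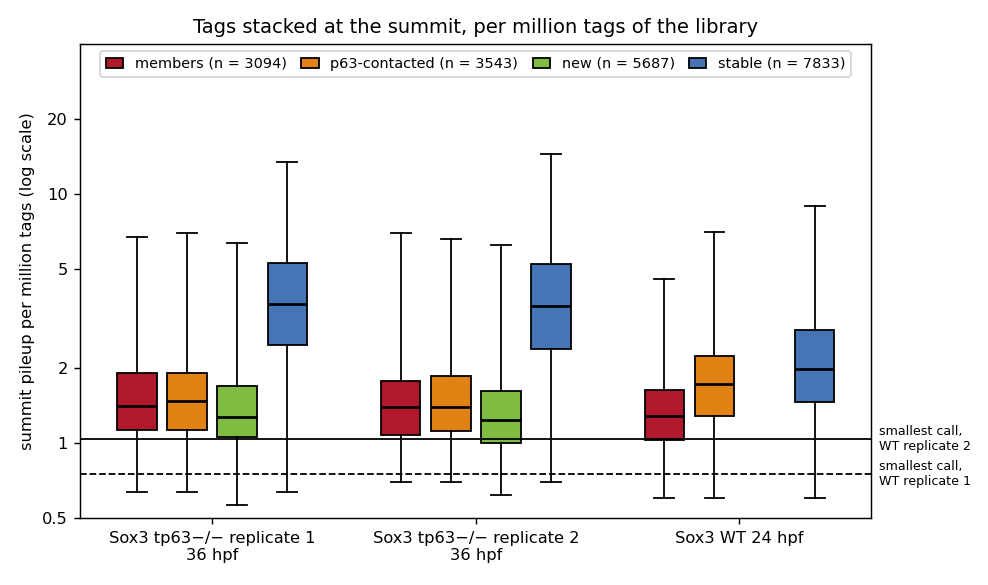
Summit pileup per M tags, that is megatags (vertical axis, log scale) in the tp63−/− lists at 36 hpf and the WT list at 24 hpf, for members, p63-contacted, new and stable regions, with boxes for the middle 50% and whiskers to the lowest and highest value. Horizontal lines mark the smallest call of each WT list at 36 hpf, derived at its lowest background. They lie at 0.753 (replicate 1, dashed) and 1.04 (replicate 2, solid) per M tags. The member medians of 1.41, 1.39 and 1.29 lie above both lines, and part of each member box lies near the upper one.

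Because members were called in the lists with more recovered tags, the pileup and background of their peaks were scaled to the WT tags. A scaled peak was counted as reaching a list if its Poisson −log10 p was at least the lowest in that list. On this scale 2990 members (96.6%) reached the lowest call of WT replicate 1 from both mutant peaks, and 2106 (68.1%) that of WT replicate 2. The share for WT replicate 2 was 74.7% for p63-contacted regions, 57.7% for new regions and 97.8% for stable regions, which were all called there. Reaching both WT lists followed rank closely, which is built in, since both rest on the same mutant pileup and background. Reaching both held for 33 of 579 members (5.70%) with a mean mutant percentile of at most 25. It held for 1109 of 1551 (71.5%) between 25 and 50, for all 900 between 50 and 75 and for all 64 above 75. The other 988 members had at least 1 mutant peak that, once scaled, fell under the lowest call of a WT list. For the 2106 the expected WT pileup at the same relative height reached the lowest call, with counting error left out. Over all members, the median expected pileup in WT replicate 2 was 8.13 and 8.01 tags from the tp63−/− replicates, against a smallest call of 6. Reaching the call thus does not mean that a peak would have been called. Whether their WT signal differed from the mutant signal was not tested, since peak lists hold no value where no peak was called.

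**Figure D3:**
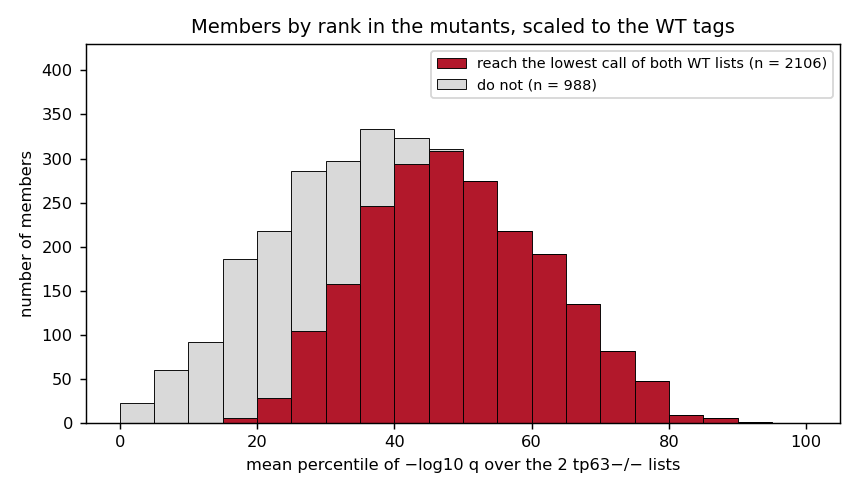
Number of members (vertical axis) by mean percentile of −log10 q over both tp63−/− lists (horizontal axis, bins of 5). Red bars count the 2106 members whose mutant peaks, scaled to the tags of each WT library, reach the lowest call of both WT lists, and grey bars stacked on top the 988 that do not, which lie in the lower part of the range.

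Ranks of members agreed moderately between mutant replicates and hardly between mutants and 24 hpf. Across the 3094 members, Spearman's rho of the percentiles was 0.42 between the tp63−/− replicates (Pearson's r 0.43). It was nearly the same across p63-contacted regions, at 0.44, and 0.88 across stable regions. Between each mutant list and the 24 hpf list rho was 0.17 for members, 0.24 and 0.21 for p63-contacted regions and 0.55 and 0.54 for stable regions. The rule bounded the heights of mutant-only regions from both sides, and of stable regions from below only. Member summits also held fewer tags, with medians of 20 and 18 in the mutants, against 51 and 46 in stable regions. The part of either in the lower rho was not tested. Regions of a list share library and depth, so these values are descriptions across regions. Still, by bands of mean mutant percentile the median 24 hpf percentile of members was 30.4, 38.1, 45.3 and 50.3 from the weakest to the strongest band.

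The rule itself limited how far apart summits could lie, since member peaks had to merge or overlap, so these distances are a description. The summits of the tp63−/− replicates were a median of 33 bp apart in members (middle 50%, 13 to 69 bp), and 2652 members (85.7%) had them within 100 bp. From the 24 hpf summit the median distance was 41 bp to replicate 1 and 45 bp to replicate 2, with 80.7% and 79.3% of members within 100 bp. In stable regions the medians were 22 bp between the mutants and 33 and 37 bp to the 24 hpf summit. For p63-contacted regions they were 32, 33 and 37 bp. New regions had a median of 36 bp between the mutants.

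Members were narrower than stable regions. Merged over the mutant lists, their median width was 271 bp (95% interval 267 to 275), with the middle 50% between 220 and 341 bp and extremes of 134 and 970 bp. Stable regions, merged over 4 lists, had a median of 452 bp, p63-contacted regions 269 bp, new regions 250 bp and all merged regions 233 bp. As single peaks, members were 225 and 209 bp wide in the tp63−/− lists and 182 bp at 24 hpf, against 395, 401 and 266 bp for stable regions. Merged width went with rank in the mutants (rho 0.27 and 0.18 across members) and not with rank at 24 hpf (rho −0.03). The 24 hpf peak had no part in the merged width, so this contrast is a description. From the weakest to the strongest band of mutant rank, median width was 237, 268, 295 and 337.5 bp.

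Single members show what these medians cover. The strongest in the mutants was chr2:17696654-17697149 (GRCz10, as all coordinates here), 496 bp wide, with a fold enrichment of 17.8 and 19.4 in the tp63−/− lists and 7.81 at 24 hpf. Its summit pileup was 72 and 77 tags in the mutants and 17 at 24 hpf, and its nearest WT peak at 36 hpf lay 31856 bp away. At 24 hpf its percentile was 58.5. The next, chr2:43508909-43509336, had fold enrichments of 15.4 and 14.7 in the mutants and 8.53 at 24 hpf. At chr6:55037785-55038090 they were 22.2 and 15.5 in the mutants and 7.18 at 24 hpf. These were chosen for their mutant rank, and at 24 hpf they differed widely. The second stood at percentile 69.99 there and the third at 43.3. The region chr3:20892612-20892876 had 14.4 and 17.4 in the mutants and 6.96 at 24 hpf (percentile 51.8), and chr17:5480866-5481314 had 19.1 and 17.0 in the mutants and 5.13 at 24 hpf, where its percentile was 5.24.

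The members that were strongest at 24 hpf were of middle rank in the mutants, with 1 exception. At chr6:46386600-46386865 the fold enrichment was 7.51 and 7.99 in the mutants and 13.9 at 24 hpf, and a p63 peak that did not count as a p63 site lay 157 bp away. At chr2:50743262-50743599 it was 9.20 and 7.99 in the mutants and 14.4 at 24 hpf, with the nearest p63 peak of any list 48341 bp away. The exception was chr14:30264305-30264635, with 11.1 and 10.6 in the mutants and 12.3 at 24 hpf, at percentiles 78.0, 66.2 and 90.6. The widest members were chr10:44734890-44735859 (970 bp), chr14:28180518-28181457 (940 bp) and chr21:1715355-1716276 (922 bp). In these the mutant summits lay 414, 790 and 180 bp apart, against a median of 33 bp over all members.

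Distances to p63 binding were measured from edge to edge. A p63 site was a merged p63 region called in both replicates of at least 1 stage, of which there were 31197. The median member lay 13271 bp (95% interval 12481 to 14093) from the nearest p63 site, against 15214 bp (14506 to 15930) for new regions and 12261 bp (11803 to 12719) for stable regions. By distance, 192 members (6.21%) were under 1000 bp from a p63 site, 1280 (41.4%) up to 10 kb and 136 (4.40%) at 100000 bp or more, and 15 lay on a scaffold without a p63 site. By stage of the p63 site, the member medians were 16875 bp for 80% of epiboly, 44144 bp for 24 hpf and 56924 bp for 36 hpf. Without replicate 1 of p63 at 80% of epiboly, when a peak in the remaining replicate made a site, the median to any site was 7879 bp. The distance hardly changed with rank in the mutants, at 12729.5, 13245 and 13304 bp in the first 3 bands and 16863 bp in the 64 members of the strongest.

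Extremes were wide apart. The closest members to a p63 site were chr2:58760357-58760630 at 1 bp, chr15:23421341-23421716 at 10 bp and chr23:24645207-24645433 at 13 bp. A few bases thus kept these 3 among the members. The farthest were chr4:55576580-55576893 at 423624 bp, chr11:10055784-10056014 at 336184 bp and chr1:42393768-42394027 at 293348 bp. The fold enrichment of these 6 in tp63−/− replicate 1 ran from 4.65 to 8.84, and the members on chr23 and chr1 (4.65 and 5.30) were under the lower quartile of all members, 5.95. At the edge of the rule, chr15:7060457-7060932 touched a p63 peak without sharing a base, while chr12:14176289-14176495 shared 2 bp with one and was not a member. On the side of the 24 hpf peak, chr22:36135271-36135430 was a member through an overlap of 1 bp, and chr11:1426474-1426646 was not, since it only touched a 24 hpf peak. In −log10 q, 2 members were under 4 in tp63−/− replicate 1, 8 in replicate 2 and 14 at 24 hpf, and the lowest were 3.85, 3.04 and 3.26.

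**Figure D4:**
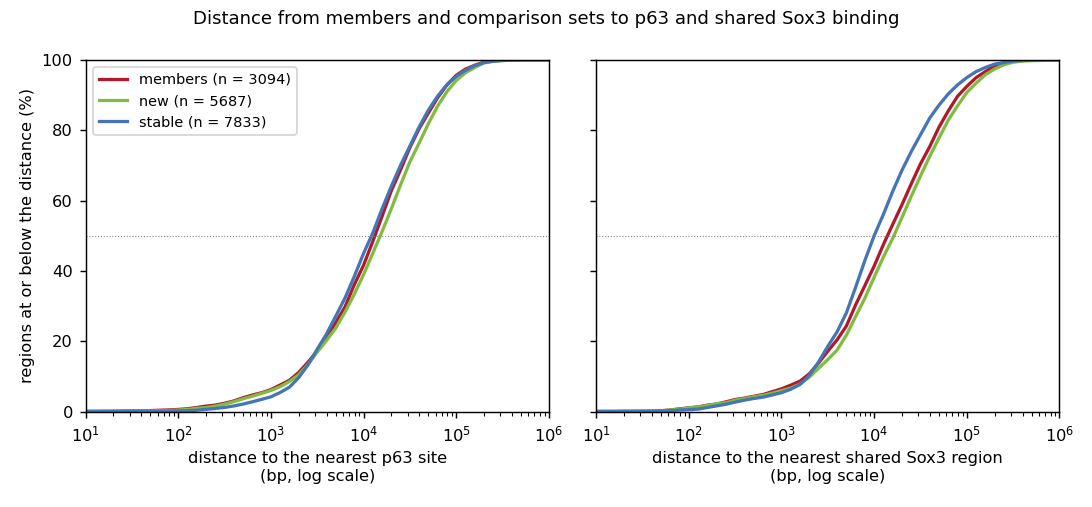
Cumulative share of regions (vertical axis, percent) by distance in bp (horizontal axis, log scale) to the nearest p63 site (left) and to the nearest shared Sox3 region other than the region itself (right), for members, new and stable regions. The curves to p63 nearly coincide (medians 13271, 15214 and 12261 bp), and in the right panel the stable curve lies to the left of the other ones at the median and beyond and not under 1000 bp (medians 14128, 16362 and 10000.5 bp).

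How close members came to p63 peaks was then compared over the p63 libraries, which the choice of a member used only for absence of overlap. A p63 peak of any list lay within 10 kb of 2148 members (69.4%, 95% Clopper-Pearson interval 67.8 to 71.0), against 65.1% of new regions, 70.0% of stable regions and 63.2% of all merged regions without a p63 peak. Per library the member share was 46.9% and 52.0% at 80% of epiboly, 21.8% and 35.6% at 24 hpf, and 24.1% and 14.8% at 36 hpf. Stable regions had higher shares in every library, at 48.1% and 52.2%, 25.5% and 39.7%, and 26.2% and 17.5%. New regions had lower shares in every library, at 42.4% and 46.7%, 21.3% and 33.8%, and 23.7% and 14.7%.

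The difference of members minus stable regions was −2.31 ± 1.48 percentage points (SD, n = 6 libraries), negative in 6 of 6 libraries (two-sided exact sign-flip permutation test, p = 0.03125, adjusted p = 0.03125). Members minus new regions was 2.11 ± 2.21 percentage points (SD, n = 6), positive in 6 of 6 libraries, with the same exact p and adjusted p of 0.03125. This is the smallest p that 6 libraries allow, and the adjustment is by Benjamini-Hochberg over 3 comparisons. The third, members minus p63-contacted regions, was −22.0 percentage points with the same exact p, but it follows from the definition of the sets and is no result. Adjusted over the other 2 comparisons alone, both values stayed at an exact p of 0.03125. The difference from new regions was largest in replicate 2 of 80% of epiboly (5.28 points) and smallest in replicate 2 of 36 hpf (0.153 points). The latter is the p63 library with the fewest uniquely mapped reads reported by the study, and it counted as much as the others. The difference from stable regions ran from −4.10 to −0.211 points. The libraries were measured on the same regions and are replicate pairs of 3 stages. The 6 values are thus not independent, which the sign flip assumes, and the test covers agreement between libraries only. Neither difference passed the test at 5 kb (−1.05 points from stable regions, exact adjusted p = 0.0938, and 0.964 points from new regions, exact adjusted p = 0.1875) or with the Sox3 lists scaled to the shallowest (−1.98 and 1.89 points, exact adjusted p = 0.0938 for each). With the 2106 members that reached both WT lists, the difference from stable regions was −1.77 points (exact adjusted p = 0.0625) and that from new regions 2.65 points (exact adjusted p = 0.0469, or 0.0625 when adjusted over the 2 comparisons not fixed by definition).

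At short range the direction against stable regions turned round. Any p63 peak lay within 500 bp of 335 members (10.8%, 95% interval 9.75 to 11.98), against 7.88% of new regions and 5.66% of stable regions. Over the 6 p63 libraries the mean difference of members minus stable regions at 500 bp was 1.33 percentage points (exact adjusted p = 0.0938), a distance chosen after seeing the data. Stable regions were wider and stood for several merged peaks, and the part of width in this difference was not tested.

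**Figure D5:**
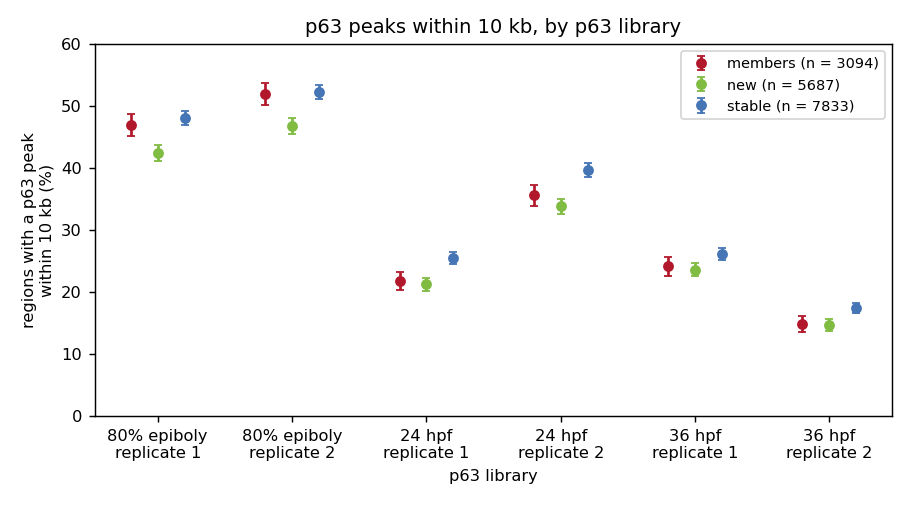
Share of regions with a p63 peak within 10 kb (vertical axis, percent) in each of the 6 p63 libraries (horizontal axis, by stage and replicate), for members, new and stable regions with 95% Clopper-Pearson intervals. Members lie between new and stable regions in all 6 libraries, and all sets are highest at 80% of epiboly (members 46.9% and 52.0%).

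Between stages, the member share within 10 kb averaged 49.4% ± 3.63 over the libraries of 80% of epiboly, 28.7% ± 9.76 over those of 24 hpf and 19.5% ± 6.58 over those of 36 hpf (SD, n = 2 each). The exact permutation test over the 15 partitions of the libraries gave p = 0.133, where the smallest possible p is 0.0667, so this design could not reach the threshold. The shares moved with the length of the p63 lists, which held 36652 and 42668 peaks at 80% of epiboly, 14707 and 25659 at 24 hpf and 16993 and 9538 at 36 hpf. Stage and list length cannot be told apart here.

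Shared Sox3 regions, with a peak in all 4 lists at 36 hpf, numbered 22511. The median member lay 14128 bp (95% interval 13057 to 15046) from the nearest one, against 16362 bp for new regions, 17205.5 bp for p63-contacted regions and 10000.5 bp for stable regions to the nearest other one. A shared region lay within 10 kb of 1271 members (41.1%), against 37.8% of new, 36.2% of p63-contacted and 49.8% of stable regions. Under 1000 bp from one there were 199 members (6.43%). Of the regions with a shared region on their chromosome or scaffold, 6.48% of members, 5.95% of new and 5.39% of stable regions had one at up to 1000 bp, so the order was another at short range. Without WT replicate 2, when 3 lists defined a shared region, the member median was 8874.5 bp. By the median, members lay nearer to a shared region than new and p63-contacted regions and farther from one than stable regions. These distances were not tested, since they rest on the same Sox3 lists as the rule.

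Peaks in single WT lists were nearer, which is all but built in, since every shared region holds a peak of both WT lists. The nearest peak of WT replicate 1 at 36 hpf was a median of 6210 bp from a member and that of replicate 2 a median of 10770 bp. A peak of either WT list lay within 500 bp of 297 members (9.60%) and within 10 kb of 2152 (69.6%). These shares were not taken in the comparison sets. The nearest other member was a median of 112481 bp away, and 193 members (6.24%) had another within 10 kb.

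Members were spread over all 25 chromosomes, with 45 (1.45%) on unplaced scaffolds. Their number ran from 72 on chromosome 25 to 203 on chromosome 7. As a share of the merged regions of a chromosome it ran from 2.55% on chromosome 25 to 3.68% on chromosome 14, with 3.01% overall. This spread was not tested.

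The Sox3 list at 80% of epiboly, which the rule did not use, showed early binding at few members. It overlapped 35 members (1.13%, 95% Clopper-Pearson interval 0.789 to 1.57). The share was 10.05% (9.08 to 11.1) of p63-contacted regions, 0.211% (0.109 to 0.368) of new regions and 1.75% (1.47 to 2.06) of stable regions. Among all merged regions it was 5.03%, but among those without a p63 peak 0.504%, and among those with a 24 hpf peak and no p63 peak 1.22% (1.07 to 1.37). The member share was thus near that of all regions with a 24 hpf peak and no p63 peak. Of the 5175 merged regions with such an early peak, only 359 had no p63 peak. The higher share of p63-contacted regions is thus not particular to them. These intervals cover counting error only, neighbouring regions are not independent, and the list is 1 library of 6045 peaks. Of the Sox3 libraries it had the fewest uniquely mapped reads that the study reported. The 35 members had a median percentile of 31.8 at 80% of epiboly and 52.6 at 24 hpf, and in the mutants of 58.8 and 42.4, with a median width of 304 bp.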

How the data were processed

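ChIPmentation libraries of p63 and Sox3 from whole zebrafish embryos fell into 7 groups of antibody, stage and genotype by their labels (12 libraries). Per the methods, the authors aligned reads with Bowtie to GRCz10 (danRer10) and called peaks with MACS2 in each library alone, at a false discovery rate limit of 0.001, with a genome size of 1.5 Gb and no control library stated. Tool versions are not given in the sources used here. The deposited fold enrichment is the ratio (pileup at the summit plus 1) over (local background plus 1). The authors deposited significance on a −log10 scale, for both p and q. The deposited score is a rounded multiple of −log10 q and was not used. The deposited summit offset is in bp from the peak start. None is scaled between libraries, so ranks were taken within lists.

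Pileup and background were recovered from fold enrichment and −log10 p under a Poisson model. Backgrounds were whole tag numbers in 10 kb windows, which gave fragment length and tags for the 5 Sox3 lists at 24 and 36 hpf (largest error 0.000217 in −log10 p). Recovered tags are those behind the peak call, not sequenced reads.

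Overlap meant at least 1 bp. Shares have 95% Clopper-Pearson intervals, medians 95% order-statistic intervals, both for counting error only. Nothing in the labels says whether replicates came from separate clutches, so p-values measure the spread between these libraries. Comparisons over p63 libraries used two-sided exact sign-flip tests (64 arrangements) and exact partition tests, in Python 3.11.15 with SciPy 1.17.1, checked on simulated intervals. Members, sets and tests were chosen with earlier results of these data known. Regions named in the text were, by rule, the 5 strongest in the mutants, the 3 strongest at 24 hpf, the 3 closest to and farthest from a p63 site, the 3 widest, and those nearest the limits of the rule. Gene names and sequences were not assigned, since no GRCz10 genome or annotation was used here.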

Additional observations from a re-analysis of the deposited data

How the results depend on the processing

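The lists hold peaks above a threshold only, so a region without a peak may still hold signal, and depth limits every absence. With equal numbers of top peaks taken from the 5 Sox3 lists there were 273 members, with the lists scaled to the depth of the shallowest 1626, and with absence of a p63 site in place of any p63 peak 4686. A −log10 q of at least 10 in every list gave 3394 members, but only 598 of them were members without this limit. Leaving out 1 replicate gave 3107 to 6410 members, where a rise is all but built in, since a condition of the rule falls away.

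Percentiles in every setting stayed those of the full lists. Settings that drop weaker peaks thus raise the median by construction, and the values are not ranks among the peaks kept. In the order equal number of peaks, −log10 q of at least 10, the median mutant percentile was 70.0 and 61.8 (28.98 to 48.9 without 1 replicate). The 24 hpf percentile was 70.7 and 68.1 in these settings, 51.0 on scaled lists, 44.9 at a fold enrichment of at least 5, 44.3 by p63 sites and 41.6 in members reaching both WT lists (34.0 to 43.3 without 1 replicate). Width was 338 and 333 bp, then 280 bp scaled, 276 bp at a fold enrichment of at least 5 or with gaps of 100 bp merged, and 281 bp in members reaching both WT lists (195 to 299 bp without 1 replicate). The fold and −log10 q limits were set on every list, so fewer peaks were left to form p63 sites and shared regions. Longer distances to both are thus all but built in. So is a longer distance to p63 where members within 500 bp of a p63 peak were dropped. The distance to a p63 site was 26710 bp at the −log10 q limit, 17353 bp at the fold limit and 14426 bp with no p63 peak within 500 bp (7879 to 13737 bp without 1 replicate). That to a shared region was 25933 bp and 18544 bp at these limits and 19562 bp at equal numbers (8874.5 to 16167 bp). The share with a peak at 80% of epiboly was 0.678%, 1.61% and 2.56% there and 2.18% by p63 sites (0.858% to 1.83% without 1 replicate, the highest without p63 replicate 2 of 80% of epiboly).

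Within 10 kb of p63, members minus stable regions reversed at 500 bp (1.33 points, chosen after seeing the data, as was the setting of members reaching both WT lists). It kept its sign and missed the threshold at 5 kb (−1.05), at 50 kb (−0.622), on scaled lists (−1.98) and at equal numbers (−1.17). The same held by p63 sites (−2.66), at 50% overlap (−1.92) and in members reaching both WT lists (−1.77). Without 1 replicate it was −3.06 to −1.37. It passed without either tp63−/− replicate (−3.06 without replicate 2) and without WT Sox3 replicate 1. It missed without WT Sox3 replicate 2 (−1.52) and without p63 24 hpf replicate 2 (−1.37). Members minus new regions missed the threshold at 500 bp (0.514), 5 kb (0.964), a −log10 q of at least 10 (0.900), scaled (1.89) and equal numbers (3.87). Without 1 replicate this difference was 1.55 to 4.24. It passed without either tp63−/− replicate (4.24 without replicate 2) and without WT Sox3 replicate 2. Without WT Sox3 replicate 1 it was also lost, with all 6 p63 libraries kept (1.95 points, exact adjusted p = 0.0625). It was larger by p63 sites (5.15) and at 50 kb (3.72), as was members minus stable at a fold enrichment of at least 5 (−4.33). Adjusted over the 2 comparisons not fixed by definition, chosen after seeing the data, the call against stable regions was lost in 2 more settings and that against new regions in 5 more (exact adjusted p = 0.0625 in each). Members minus p63-contacted regions, fixed in direction by the definition of the sets and no result, was −34.3 at 500 bp, −27.1 at 5 kb, −21.2 scaled and −18.6 at equal numbers, with −25.3 to −20.7 without 1 replicate. Without 1 p63 library the smallest exact p is 0.0625, so no such test can pass. Between stages, the share at 80% of epiboly exceeded that of the later stages by 25.3 points, a difference that was not itself tested. An exact permutation test over the 3 stages with a replicate block gave p = 0.333. The smallest p it allows is 0.167, so it could not reach the threshold. Beyond what is named as built in, the causes of these changes were not tested.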
